A study of Mus musculus with 12 samples.

Results

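Acyl-CoA thioesterases were followed in the brown fat, a thermogenic tissue, of obese mice treated with an antibody that activates the receptor FGFR1. The family was taken as Acot1, Acot2, Acot3, Acot4, Acot5, Acot7, Acot8, Acot9, Acot11 and Acot13, with all of their probe sets that name a single gene. These are 10 of the 18193 genes tested and 13 of the 34945 probe sets with a single gene. All 12 animals were males of 3 months, fed normal chow and homozygous for the ob mutation, written ob/ob, which leaves them without functional leptin. In the treated group 6 mice received 1 injection of 1 mg/kg of the agonistic anti-FGFR1 antibody into the abdominal cavity, and in the control group 6 pair-fed mice, whose food was matched to that of the treated group, received a control IgG. Brown fat was taken on day 4, and its RNA was measured on 1 Affymetrix array per mouse, so both groups share the obese, leptin-deficient state and the result holds for it alone.

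Acyl-CoA thioesterases cut the thioester bond between a fatty acid and coenzyme A (CoA) and release the free acid and CoA. They thereby counteract the acyl-CoA synthetases, which make the same bond, and set how much activated fatty acid stands ready for oxidation, lipid synthesis or export from an organelle. The type I enzymes of this family (Acot1 to Acot5 here) are close relatives that act in the cytosol, in mitochondria or in peroxisomes. The type II enzymes share the hot dog fold and include Acot7, Acot8, Acot9, Acot11 and Acot13. Acot11, also called Them1 or brown fat-inducible thioesterase, is known as a brown fat gene that rises in the cold and restrains fatty acid oxidation, and genes of the type I group are known targets of the fatty acid receptor PPAR alpha.

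In the RefSeq gene order of the mouse assembly GRCm38.p6, Acot2, Acot1, Acot4, Acot3 and Acot5 are neighbouring coding genes on chromosome 12. Acot7 and Acot11 lie on chromosome 4, Acot8 on 2, Acot9 on X and Acot13 on 13. The sequences that follow are the 250 bases before the RefSeq start sites (GRCm38.p6, 5′ to 3′ along the gene's strand) of the 2 members that passed the test, Acot11 and Acot9, and of Acot4, the chromosome 12 gene with the nuclear receptor motif nearest to its start. For Acot11 both listed starts are shown, since the arrays do not say which one was used. Capitals mark matches on either strand to 4 motifs: AGGTCA (the half-site of nuclear receptors such as the PPARs), CCAAT, the GC box GGGCGG and the TATA box TATAAA.
Acot11, upstream start, chr4:106805008-106805257, minus strand: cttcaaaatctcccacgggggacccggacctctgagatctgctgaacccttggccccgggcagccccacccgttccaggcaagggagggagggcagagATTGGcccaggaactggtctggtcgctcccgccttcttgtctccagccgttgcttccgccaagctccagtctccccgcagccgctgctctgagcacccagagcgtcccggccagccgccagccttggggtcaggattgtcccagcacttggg
Acot11, downstream start, chr4:106799832-106800081, minus strand: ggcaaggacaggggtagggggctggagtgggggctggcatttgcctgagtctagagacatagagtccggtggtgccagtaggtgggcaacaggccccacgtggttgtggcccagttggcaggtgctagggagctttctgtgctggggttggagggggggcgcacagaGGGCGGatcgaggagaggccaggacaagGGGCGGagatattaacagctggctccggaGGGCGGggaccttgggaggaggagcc
Acot9, chrX:155262193-155262442, plus strand: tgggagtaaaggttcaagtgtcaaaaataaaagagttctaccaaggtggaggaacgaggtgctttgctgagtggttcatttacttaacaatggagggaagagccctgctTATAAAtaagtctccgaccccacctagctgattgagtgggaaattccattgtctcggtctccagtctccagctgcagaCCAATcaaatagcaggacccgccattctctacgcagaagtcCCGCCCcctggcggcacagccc
Acot4, chr12:84038129-84038378, plus strand: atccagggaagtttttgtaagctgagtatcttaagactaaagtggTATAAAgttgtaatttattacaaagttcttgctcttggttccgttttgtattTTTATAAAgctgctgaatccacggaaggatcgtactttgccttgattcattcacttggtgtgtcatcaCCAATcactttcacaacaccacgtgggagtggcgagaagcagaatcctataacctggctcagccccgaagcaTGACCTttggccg

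Promoters of 9 members were matched in the RefSeq table. A member was counted when any of its listed windows held the motif, and Acot3, Acot5 and Acot11 have 2 windows each. The percentages below count single windows, so the units differ. AGGTCA was found in 2 of these 9 genes, Acot4 (13 bases before the start) and Acot5, against 14.0% of the 32851 promoter windows of the same length. CCAAT was present in 8 of the 9, all but Acot7, against 33.8% of all windows. GGGCGG was present in 5 of the 9 against 32.7%, and TATAAA in 2, Acot4 and Acot9, against 12.4%. In the Acot4 window a pair of TATAAA matches on opposite strands overlaps. The downstream Acot11 window held GGGCGG at 3 places and no CCAAT, and the upstream one held CCAAT and no GGGCGG. A match is a string of letters and shows neither binding nor use.

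Before the results, some facts on the arrays bear on them. Every sample held strong brown fat signal: all 10 brown fat markers were measured, Ucp1 at 14.5 on average in both groups and Cidea at 14.4 and 14.3 (control IgG and anti-FGFR1). The mean of these markers was 11.84 ± 0.13 in the control group and 11.95 ± 0.080 in the treated group (SD, n = 6 each, exact permutation p = 0.117, two-sided). Among them Elovl3 (log2 fold change 0.76, limma adjusted p = 0.0254) and Cox7a1 (0.16, limma adjusted p = 0.0423) passed the test as higher. Zic1 passed as lower (-0.23, limma adjusted p = 0.0371), and 7 did not pass. The mean of 10 endothelial markers went from 9.83 ± 0.080 to 9.55 ± 0.090 without overlap between groups (9.73 to 9.95 against 9.42 to 9.64, exact permutation p = 0.0022, the smallest these 12 arrays allow). Of the 10, 7 passed the test as lower, and 1 had a log2 fold change above 0. The mean of 12 macrophage markers was higher by 0.27 (exact permutation p = 0.0498), from 9.83 to 10.49 in controls and from 10.10 to 10.50 after treatment. All 12 had a log2 fold change above 0, and 2 of them passed the test. The white fat marker mean differed by 0.12 (exact permutation p = 0.199) and the nerve marker mean by 0.049 (exact permutation p = 0.0108). Both lists held markers that passed the test in opposite directions. In the white fat list Retn (0.69) and Slc7a10 (0.70) were higher, and Lep (-0.56) and Npr3 (-0.31) were lower. In the nerve list S100b was higher (0.36) and Mbp lower (-0.23). Skeletal muscle markers varied from array to array, with means from 6.62 (anti-FGFR1 replicate 5) to 11.78, and 0 of 12 passed the test. The signal near the 3′ end of control transcripts minus that near the 5′ end, a measure of RNA quality, was 0.161 ± 0.031 in controls and 0.203 ± 0.027 after anti-FGFR1 (exact permutation p = 0.0368). This measure is the mean over Actb, which differed by 0.069 (exact permutation p = 0.0433), and Gapdh, which differed by 0.014 (exact permutation p = 0.506). The macrophage and RNA quality differences each kept an exact permutation p under 0.05 in 3 of the 12 omissions of 1 array. What part these quantities have in the thioesterase results was not tested beyond the fits that take them as covariates. In bulk tissue, fewer cells of a type and less RNA per cell cannot be told apart.

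The comparison asks which thioesterase transcripts differ in brown fat on day 4 of FGFR1 activation. Acot11 rose by 0.36 ± 0.093 on the log2 scale (SE), about 1.29-fold, and Acot9 fell by 0.15 ± 0.041, a change of -9.97%. The other 8 genes did not pass the test. A call here means a Benjamini-Hochberg adjusted p under 0.05 over all genes in limma, and each gene is read through its probe set with the highest mean over the 12 arrays. The 2 called members are 20% of the family, against 8.03% of all genes, of which 2.94% were called higher and 5.09% lower. That is 535 genes higher and 926 lower, which another quantile normalization turned into 732 and 760. With 10 genes each call adds 10 points, so the family's share is read only as these named genes. At an unadjusted p under 0.05 there were 4 members (Acot8, Acot9, Acot11 and Acot13), 40% against 22.4% of all genes. The median log2 fold change of the 10 members was 0.04 and that of all genes 0.01, with 6 members above 0.

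**Figure D1:**
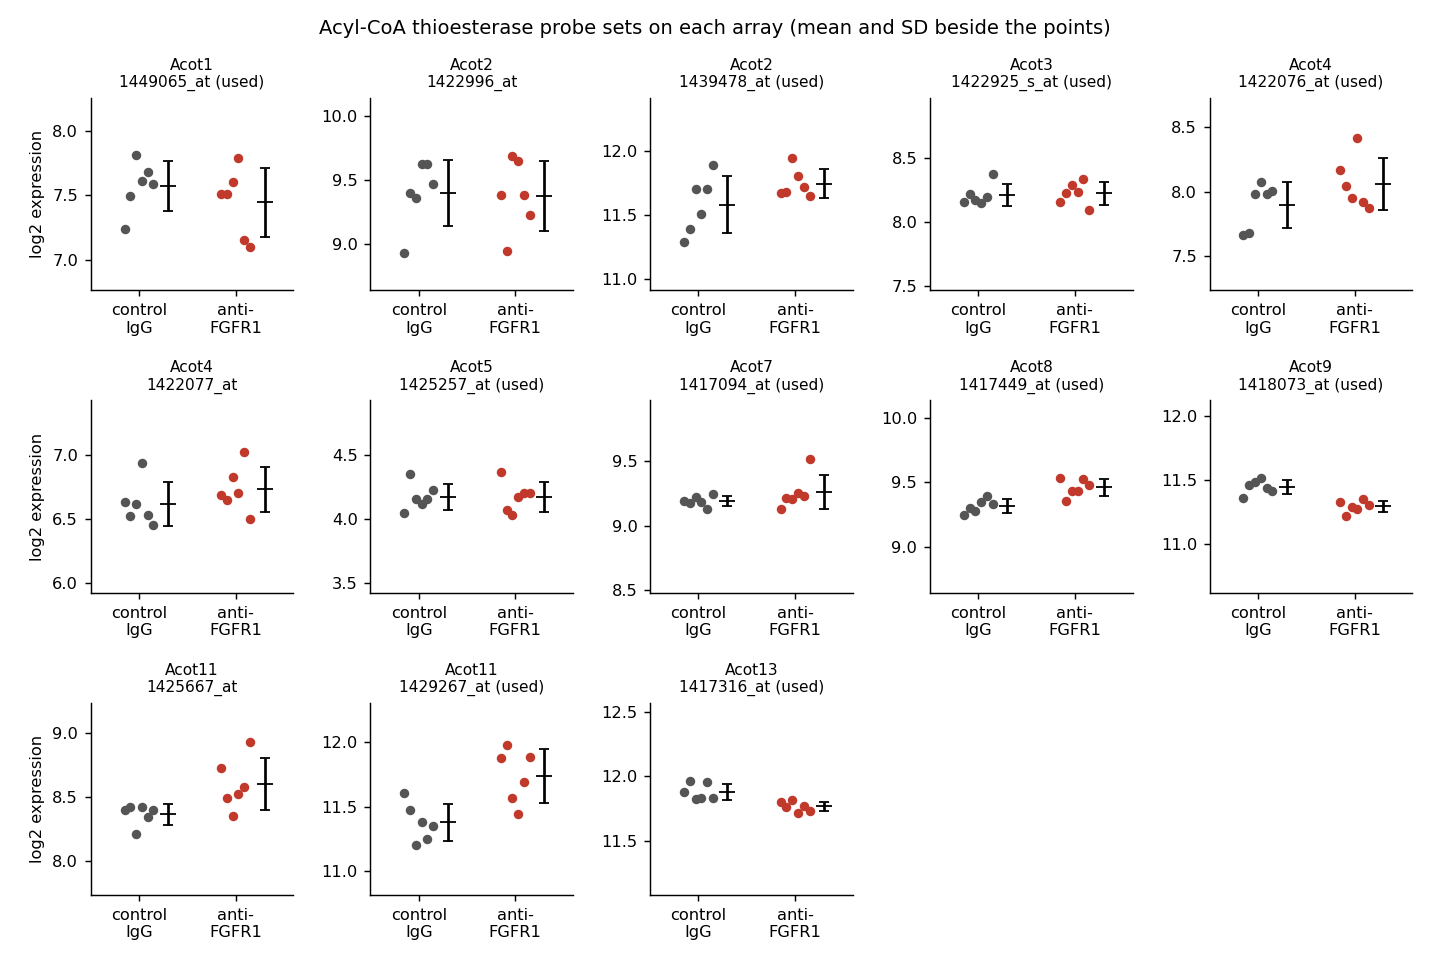
Log2 expression of each of the 13 thioesterase probe sets (vertical axis, one scale length in all panels) on the 6 control IgG arrays (grey) and 6 anti-FGFR1 arrays (red), with mean and SD beside the points. Acot9 and Acot13 are the genes whose anti-FGFR1 points all lie below the control points, and 4 of 6 anti-FGFR1 points of Acot11 (1429267_at) lie above all controls.

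Acot11, the lipid droplet-associated thioesterase of brown fat with a lipid-binding START domain, has 2 probe sets. On the brighter one (1429267_at) the control arrays lay at 11.20, 11.37 and 11.60 (lowest, median and highest) and the anti-FGFR1 arrays at 11.44, 11.78 and 11.98. The groups overlap: 4 of 6 treated arrays exceeded every control, and the other 2 fell inside the control range. The means were 11.38 ± 0.15 and 11.74 ± 0.21 (SD, n = 6 each), a rise of 28.7% with a 95% interval from 12.03% to 47.77% (limma adjusted p = 0.0272). On the dimmer probe set (1425667_at) controls lay at 8.21, 8.40 and 8.43 and treated arrays at 8.35, 8.55 and 8.93. There 5 of 6 treated arrays exceeded every control, and the difference of 0.23 ± 0.082 had the same sign but did not pass (limma adjusted p = 0.104 over all probe sets). Over the probe sets, 1 of 13 was called (7.69%), that of Acot11, against 6.90% of all single-gene probe sets.

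The Acot11 call was lost without control IgG replicate 3 or 5 and without anti-FGFR1 replicate 1, 2 or 6, with limma adjusted p up to 0.0669 and a log2 fold change between 0.32 and 0.42 over the 12 omissions. With the 3′ minus 5′ difference as a covariate its log2 fold change was 0.18 ± 0.095 (limma adjusted p = 0.358). Within groups, Acot11 and that RNA quality measure had a Pearson r of 0.68 and a Spearman rho of 0.59 over the 12 arrays, and r was 0.41 without the 2 arrays farthest from the median. With the endothelial mean as a covariate, tried after the data were seen, the log2 fold change was 0.04 (limma adjusted p = 0.958). That mean separates the groups completely, so it and the treatment cannot be told apart, and 63 genes of the whole array were called in that fit. Over 13 alternatives other than leaving out 1 array, the adjusted p of Acot11 ran from 0.0118 to 0.958, and 10 kept the call.

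Among the mitochondrial members, Acot9 and Acot13 lay lower on all treated arrays than on all controls, though Acot13 did not pass. The 2 probe sets of Acot2 had opposite signs, and neither passed. Acot9, a mitochondrial thioesterase that accepts short- to long-chain acyl-CoA, lay at 11.36, 11.45 and 11.52 on the control arrays and at 11.22, 11.30 and 11.35 on the anti-FGFR1 arrays. Every treated array was below every control, though the gap was small. The means were 11.45 ± 0.055 and 11.29 ± 0.045 (SD, n = 6 each), and the 95% interval of the log2 fold change ran from -0.24 to -0.064 (limma adjusted p = 0.0355). Fitted over all probe sets, the same values gave 0.0504. A further probe set, shared by Acot9 and its close relative Acot10 and hence no member, differed by -0.096 ± 0.049 with 2 of 6 treated arrays below all controls.

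The Acot9 call held in only 3 of the 12 fits that leave out 1 array, those without control IgG replicate 1 or 6 or without anti-FGFR1 replicate 5. It was lost without control IgG replicate 2, 3, 4 or 5 and without anti-FGFR1 replicate 1, 2, 3, 4 or 6 (limma adjusted p up to 0.0792). Its log2 fold change stayed between -0.17 and -0.14 in these fits. With the 3′ minus 5′ difference as a covariate it was -0.11 (limma adjusted p = 0.279). Over the same 13 alternatives its adjusted p ran from 0.0112 to 0.430, and 6 kept the call, which was lost after another quantile normalization (-0.12, limma adjusted p = 0.0702).

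Acot13, or Them2, a small thioesterase bound to mitochondria that partners the phosphatidylcholine transfer protein, lay at 11.824, 11.85 and 11.97 in controls and at 11.72, 11.77 and 11.815 after anti-FGFR1. All 6 treated arrays lay below all controls, as for Acot9, so the groups of 2 of the 10 members (20%) did not overlap, against 5.12% of all genes. The difference of -0.11 ± 0.042 did not pass over all genes (limma adjusted p = 0.118), and leaving out any 1 array did not bring it past the threshold.

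Acot2, the mitochondrial matrix thioesterase for long-chain acyl-CoA, was read by 2 probe sets with opposite signs. The brighter (1439478_at) lay at 11.29, 11.61 and 11.89 in controls and at 11.65, 11.70 and 11.95 after treatment, a difference of 0.16 ± 0.091 (limma adjusted p = 0.309). The dimmer (1422996_at) lay at 8.93, 9.44 and 9.63 and at 8.94, 9.38 and 9.68, a difference of -0.025 ± 0.13 (limma adjusted p = 0.938). Neither passed, and in both the groups overlapped widely. The 95% interval of the brighter one ran from -0.031 to 0.36.

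**Figure D2:**
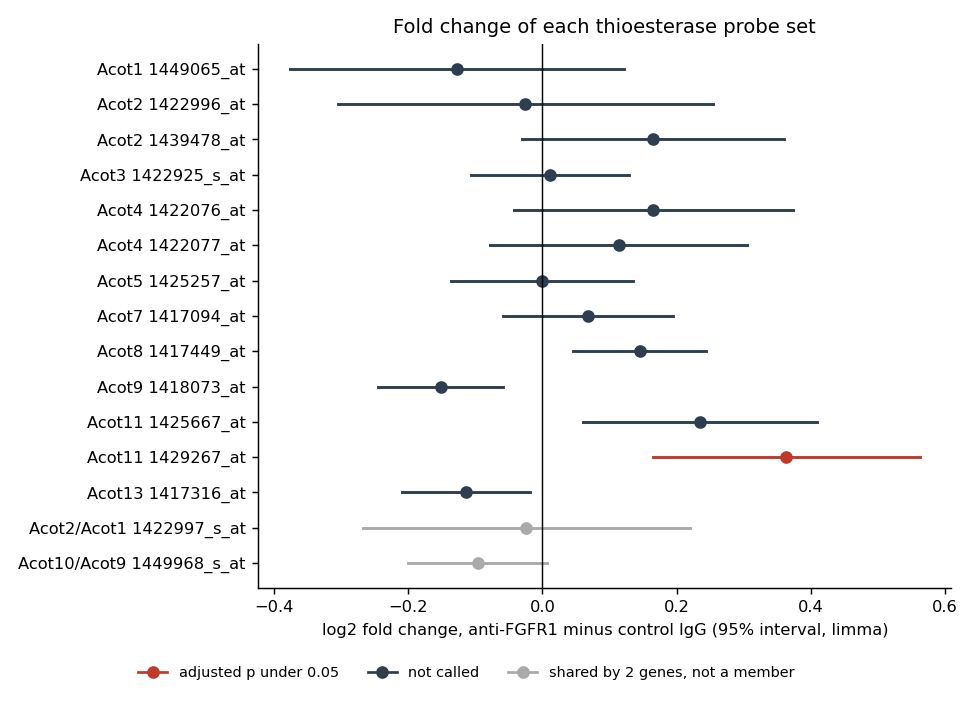
Log2 fold change of each probe set (horizontal axis, anti-FGFR1 minus control IgG, points) with its 95% interval from limma (lines), in red where the adjusted p over all probe sets is under 0.05 and in grey for the 2 probe sets shared by 2 genes. The Acot11 probe set 1429267_at is the 1 red point, at 0.36.

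The cytosolic members did not pass. Acot1, the cytosolic type I enzyme for long-chain acyl-CoA, lay at 7.24, 7.60 and 7.81 in controls and at 7.10, 7.51 and 7.79 after anti-FGFR1. Of the treated arrays 2 lay below all controls and 4 within their range, and the difference was -0.13 ± 0.12 (95% interval -0.38 to 0.12, limma adjusted p = 0.572). A probe set that Acot1 shares with Acot2 differed by -0.024 ± 0.11. These near-identical genes can share signal, so the split between Acot1 and Acot2 is uncertain. Acot7, a cytosolic enzyme best known from brain, lay at 9.13, 9.19 and 9.24 in controls and at 9.13, 9.22 and 9.52 after treatment. Its difference was 0.068 ± 0.058 (limma adjusted p = 0.535), and the treated group's spread came mostly from 1 array at 9.52, anti-FGFR1 replicate 6, without which the difference was 0.016.

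Among the peroxisomal members, Acot8, a broad-range enzyme also known for bile acid-CoA, came closest to the threshold. It lay at 9.25, 9.32 and 9.40 in controls and at 9.36, 9.46 and 9.54 after anti-FGFR1. Of the treated arrays 5 exceeded every control, and the difference was 0.15 ± 0.044 (95% interval 0.050 to 0.24, limma adjusted p = 0.0600). It did pass in 2 of the 12 omissions of 1 array, control IgG replicate 5 or anti-FGFR1 replicate 2, and in 4 of the 13 other alternatives. These 4 were another quantile normalization (limma adjusted p = 0.0201), the mean over a gene's probe sets (0.0440), genes above the median gene alone (0.0228) and array weights (0.0462), within a range up to 0.719.

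The peroxisomal type I genes of chromosome 12 showed smaller or less certain differences. Acot4, which prefers succinyl-CoA and other dicarboxylic acyl-CoA, lay at 7.66, 7.98 and 8.08 in controls and at 7.87, 7.998 and 8.42 after treatment on its brighter probe set. That difference was 0.16 ± 0.098 (limma adjusted p = 0.343), and its other probe set gave 0.11 ± 0.090 (limma adjusted p = 0.517). Without anti-FGFR1 replicate 4 the difference on the brighter probe set was 0.094. Acot3, a peroxisomal long-chain enzyme, lay at 8.14, 8.18 and 8.37 in controls and at 8.09, 8.23 and 8.34 after treatment. Its difference was 0.011 ± 0.053, and its 95% interval from -0.10 to 0.13 was narrower than that of Acot4. Acot5, a peroxisomal medium-chain enzyme, lay at 4.05, 4.15 and 4.35 in controls and at 4.03, 4.18 and 4.36 after treatment, a difference of -0.00045 ± 0.062. Its values were near the lowest on the arrays (3.16), which limits what a comparison of Acot5 could show.

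**Figure D3:**
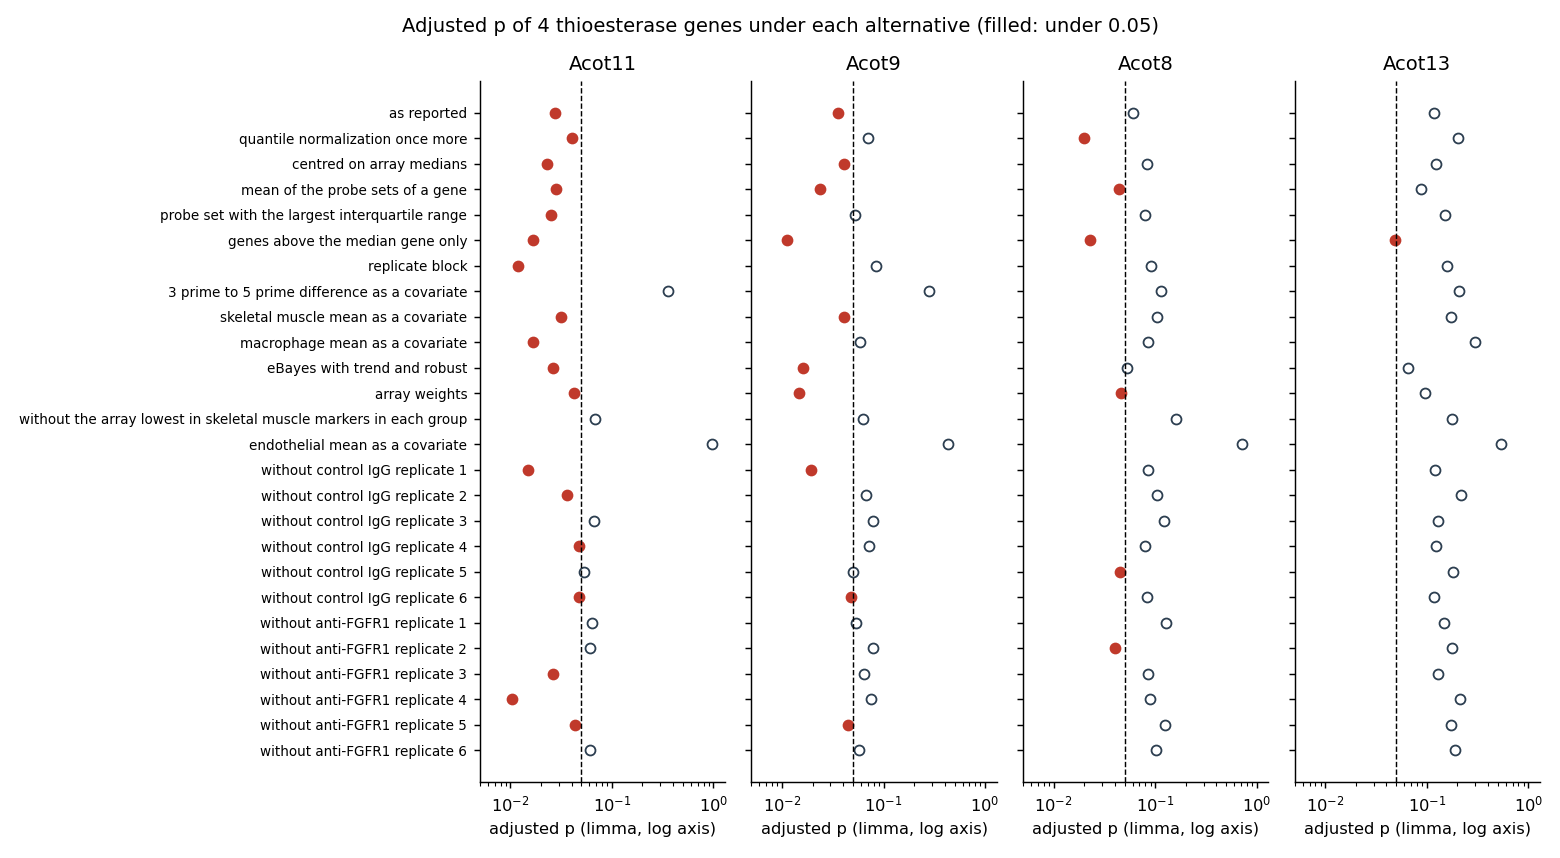
Adjusted p from limma (horizontal log axis, dashed line at 0.05) of 4 thioesterase genes under each alternative analysis (vertical axis), filled where under 0.05. Acot11 and Acot9 cross the line in several fits, Acot8 in a few and Acot13 in 1, the fit on genes above the median gene.

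The members varied among themselves within groups, which the treatment comparison does not use. After the group means were removed, Acot1 and Acot4 (1422076_at) rose and dipped together over the 12 arrays (Pearson r = 0.79, Spearman rho = 0.64, r = 0.68 without the 2 farthest arrays). Acot1 had r = 0.56 and 0.58 with the 2 Acot2 probe sets, which had r = 0.60 with each other. Acot11 (1429267_at) ran opposite to Acot1, Acot2 and this Acot4 probe set, with r = -0.80 and -0.69 for the Acot2 probe sets, -0.67 for Acot1 and -0.57 for Acot4. Without the 2 farthest arrays these were -0.65 and -0.79, -0.51 and -0.20, and the values of Acot1 with Acot2 were 0.28 and 0.35. The rest of the chromosome 12 members went with Acot11 less: r was -0.37 for Acot3, 0.11 for Acot5 and -0.22 for the other Acot4 probe set. The dimmer Acot11 probe set (1425667_at) had r = -0.24 and -0.46 with the Acot2 probe sets, -0.62 with Acot1 and -0.22 with Acot4 (1422076_at). Acot8 and Acot9 had r = 0.66 although their group differences have opposite signs. The 2 Acot11 probe sets had r = 0.54, whereas those of Acot4 had r = 0.083. These are descriptions over 12 arrays that share RNA quality and cell makeup, and no test is attached to them.

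**Figure D4:**
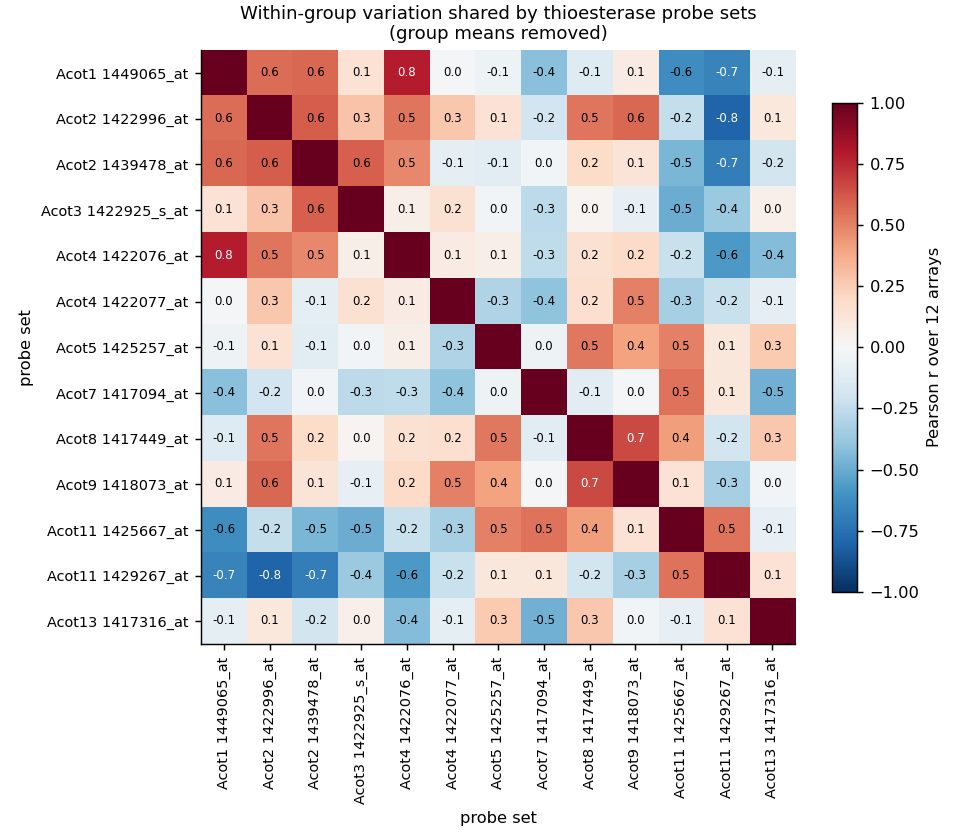
Pearson r over the 12 arrays between each pair of the 13 probe sets after removal of group means (both axes list the probe sets, colour and number give r). The block of Acot1, Acot2 and Acot4 (1422076_at) is positive, and the Acot11 (1429267_at) row is negative against it, down to -0.8.

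By the same within-group measure, the genes outside the family most like each member were, for Acot11, Emc10 (r = 0.93), Arhgap39 (0.90) and Tmem144 (0.86). For Acot9 they were Psmg1 (0.94), Cyb5b (0.93) and Saal1 (0.92). Acot8 was most like Ifrd2 (0.94), Smyd4 (0.92) and Timm8a1 (0.90), and Acot13 like Pts (0.88), Fermt2 (0.86) and Nlgn2 (0.85). For the chromosome 12 genes they were Abcc9 (0.95), Epm2aip1 (0.90) and Dyrk2 (0.89) for Acot1, and Thbs1 (0.94), Zfp758 (0.93) and Stt3a (0.93) for Acot2. Acot3 was nearest to Wasf2 (0.95), Eppk1 (0.90) and Plagl1 (0.88), Acot4 to Slc12a2 (0.91), Insig2 (0.87) and Patl1 (0.86), and Acot5 to Mapkapk2 (0.87), Mfsd3 (0.83) and Tgds (0.81). Acot7 was nearest to Selenoh (0.94), Ccl4 (0.90) and Anapc5 (0.88). Each r is over 12 arrays and was picked as the highest of 9089 genes, which by itself makes it high. Without the 2 farthest arrays r was between 0.36 (Acot7 with Anapc5) and 0.94 (Acot8 with Ifrd2). Among the array quantities, Acot3 had r = 0.79 with the endothelial mean (0.71 without the 2 farthest arrays), and Acot2 had r = 0.71 with the macrophage mean (0.44 without them). Acot4 had r = -0.72 with the nerve mean (-0.32 without them). Acot7 had r = -0.70 with the 3′ minus 5′ difference of Actb (-0.88 without them). These are the largest of many pairs of a member and a quantity, which by itself makes them large.

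Genes around the thioesterases were counted by lists. As a scale for these counts, 8.03% of the 18193 genes tested were called, 2.94% higher and 5.09% lower. The all-gene median was 0.01. Whether any list departs from these values was not tested. The lists are short, so their counts are read only as the genes named. Of 13 other thioester and CoA hydrolases measured, 2 rose, 1 fell and 10 did not pass (median log2 fold change 0.045). Hibch, which releases CoA from a valine breakdown intermediate, rose by 0.32 ± 0.057 (limma adjusted p = 0.00363). Its other probe set gave 0.38 and did not pass (limma adjusted p = 0.128 over all probe sets). Among the CoA-cleaving Nudix enzymes, the peroxisomal Nudt7 rose by 0.20 ± 0.047 (limma adjusted p = 0.0164) and Nudt8 fell by 0.22 ± 0.051 (limma adjusted p = 0.0155). Nudt19 did not pass (0.050, limma adjusted p = 0.633). The other 3 Nudt7 probe sets gave -0.14, 0.068 and -0.0051, none passing. With the mean over its probe sets Nudt7 gave 0.030 (limma adjusted p = 0.709). Acot12, a cytosolic acetyl-CoA thioesterase best known from liver, did not pass on its brightest probe set (-0.25 ± 0.078, limma adjusted p = 0.0695), although another of its probe sets did (-0.40, limma adjusted p = 0.0087) and the third was 0.16. Them4 differed by 0.10 ± 0.062.

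Of 15 acyl-CoA synthetases measured, the enzymes that oppose thioesterases, 1 rose, 1 fell and 13 did not pass (median -0.015). Acsf3, the mitochondrial malonyl-CoA synthetase, rose by 0.23 ± 0.057 (limma adjusted p = 0.0237), and did not pass without anti-FGFR1 replicate 1, 4 or 5 (limma adjusted p up to 0.0532). Acsl4, which prefers arachidonic acid, fell by 0.34 ± 0.091 (limma adjusted p = 0.0359). It no longer passed without control IgG replicate 3, 4, 5 or 6 or anti-FGFR1 replicate 1, 2, 4 or 6 (limma adjusted p up to 0.0848). The fatty acid transporter and synthetase Slc27a4 (-0.13) and the medium-chain synthetase Acsm3 (0.25) did not pass. Acsl1, the main long-chain synthetase of fat, was not analysed here.

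Of 10 genes of acyl-CoA binding and the carnitine shuttle, Cpt2 alone passed, with a rise of 0.22 ± 0.048 (limma adjusted p = 0.0127). Its other probe set gave 0.26 and did not pass (limma adjusted p = 0.433 over all probe sets). With the mean over its probe sets the call was lost (0.24, limma adjusted p = 0.159). Cpt2 re-forms acyl-CoA inside mitochondria from acylcarnitine. Acbd4 (-0.18), Acbd5 (0.16) and the carnitine transporter Slc22a5 (-0.14) did not pass, and Cpt1b, whose probe set names several genes, was not analysed here. Of 10 genes of CoA synthesis and transport, 2 rose: Coasy, which completes CoA (0.30 ± 0.063, limma adjusted p = 0.00922), and Pank3, a pantothenate kinase of the first step (0.32 ± 0.070, limma adjusted p = 0.0101). Ppcs (0.10) and the mitochondrial CoA carrier Slc25a42 (-0.076) did not pass.

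PPAR alpha itself (Ppara) differed by -0.018 ± 0.083 (limma adjusted p = 0.927). Of 19 genes measured in the list of Ppara and its targets outside the family, 0 rose, 4 fell and 15 did not pass (median -0.030). Of the 19, 7 had a log2 fold change above 0. Over the whole array 5.09% of genes were called lower, and 63.4% of the called genes were lower. Acaa1b, a peroxisomal thiolase, fell by 0.55 ± 0.086 (limma adjusted p = 0.00130), and Angptl4, a secreted lipoprotein lipase inhibitor, by 0.47 ± 0.057 (limma adjusted p = 0.000213). In both, all 6 treated arrays lay below all controls. Ucp3, a mitochondrial carrier, fell by 0.46 ± 0.099 (limma adjusted p = 0.00986), and Fabp3, a fatty acid binding protein, by 0.21 ± 0.052 (limma adjusted p = 0.0212). Over all probe sets, the other one of Fabp3 gave -0.050 (limma adjusted p = 0.823) and that of Angptl4 -0.32 (limma adjusted p = 0.136), neither passing. The other Ucp3 probe set passed (-0.48, limma adjusted p = 0.00108). None of the type I thioesterases (Acot1 to Acot5), known targets of the same receptor, passed. Of all genes 8.03% passed, so the absence of a call among so few genes says little. Whether the members differ from these targets was not tested.

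**Figure D5:**
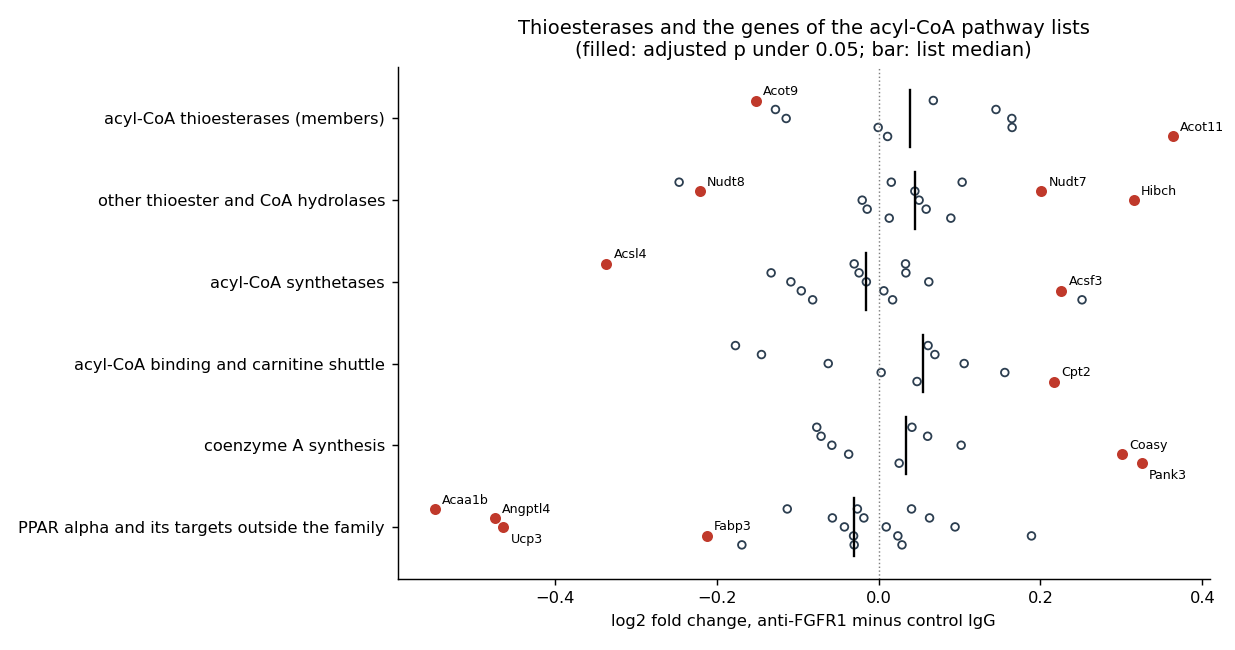
Log2 fold change (horizontal axis, anti-FGFR1 minus control IgG) of each thioesterase and of each measured gene in 5 lists of related genes (rows), filled and named where the limma adjusted p is under 0.05, with a bar at each list median. The 4 called genes of the PPAR alpha row all lie below 0, as do 63.4% of the called genes of the whole array. The list medians lie between -0.030 and 0.054.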

How the data were processed

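The values used are log2 expression as deposited, for 45101 probe sets on each of 12 arrays. RMA and limma were used by the authors, per the submitters' processing notes, with no version given. RMA corrects background, normalizes arrays together and summarises probes, which pulls small changes of dim probe sets toward 0. Arrays give no counts, so their number limits the precision. Medians per array lay between 7.19 and 7.23, and arrays correlated with their own group at 0.993 to 0.996.

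Gene names came from the platform's annotation (34945 with 1 gene, 932 with several, 9211 not listed), with symbols checked by Entrez identifier against RefSeq (34741 found). The probe set with the highest mean was kept per gene. The 2 groups were tested in R 4.3.3 with limma 3.58.1 (lmFit, eBayes, two-sided, no covariate), after reading the files with the package data.table, version 1.17.8, with Benjamini-Hochberg adjustment over 18193 genes and separately over 34945 probe sets. Single array quantities were compared by exact permutation over 924 assignments. The gene fit was also run on simulated data with independent noise, as a check of the code alone. It does not say whether changes as small as those of the members are found. Each mouse is 1 replicate, as the labels give 6 mice per group.

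Named were all members, the 4 genes of smallest p in each of 5 lists, Ppara, Acsl1, Cpt1b, Acot12 and Them4, and the 3 genes most like each member. Members and lists were chosen with earlier results of these data known. The alternatives were another quantile normalization, centring, other rules for probe sets, a filter on dim genes, a replicate block, RNA quality and marker means as covariates, eBayes with trend and robust, array weights and leaving out arrays. The 2 probe sets shared by 2 genes were read but not counted.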

Additional observations from a re-analysis of the deposited data

Results flagged for a closer look

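Of 26 groups of 6 arrays checked (13 probe sets in 2 groups), 3 had 1 array set apart from the rest, where chance gives about 1 group in 20. What set it apart was a gap to the next array that took up most of the group's range. Acot3 on control IgG replicate 6 was 8.37, against 8.22 for the next array (a gap of 0.668 of the range). Acot7 on anti-FGFR1 replicate 6 was 9.52, against 9.26 for the next (0.673 of the range). The dimmer Acot11 probe set (1425667_at) on control IgG replicate 3 was 8.21, against 8.35 for the next (0.629 of the range). None of the 3 concerns a value that passed the test.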

How the results depend on the processing

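The count of thioesterase genes that passed (2 in the report) was 4 on genes above the median gene (Acot8, Acot9, Acot11 and Acot13), 3 with the mean over probe sets or with array weights (Acot8, Acot9 and Acot11 in both), and 1 with the probe set of largest interquartile range or with the macrophage mean as a covariate (Acot11 in both). It was 0 with the 3′ minus 5′ difference as a covariate, 0 without the array lowest in skeletal muscle markers in each group, and 0 with the endothelial mean as a covariate. After another quantile normalization 2 passed, Acot11 and Acot8 in place of Acot9. Both the omission of muscle-low arrays and the endothelial covariate were chosen after seeing the data. The probe set count (1 in the report) was 2 after another quantile normalization, with eBayes trend and robust, and with array weights. It was 3 on genes above the median, and 0 with the 3′ minus 5′ difference, without the muscle-low arrays and with the endothelial mean. Leaving out 1 array gave 0 to 2 genes and 0 to 2 probe sets. With the replicate block, 1 thioesterase gene passed, Acot11 (limma adjusted p = 0.0118), and Acot9 did not (0.0848). Same-numbered arrays correlated in their deviations at r = 0.29, 0.33 and 0.22 for replicates 1, 2 and 3, each closest to its own number, and at -0.0038, -0.29 and -0.12 for replicates 4, 5 and 6. The numbers were therefore not taken to pair the animals.

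Of the lists, acyl-CoA binding and the carnitine shuttle (1 gene) gave 2 after quantile normalization and with trend and robust, 3 on genes above the median, with the macrophage mean and with array weights, and 0 with mean probe sets, the largest interquartile range and without the muscle-low arrays. With the 3′ minus 5′ difference the hydrolases, the synthetases and CoA synthesis gave 1 each and the PPAR alpha list 2. CoA synthesis gave 1 with the macrophage mean, and the synthetases 0 without the muscle-low arrays. With the endothelial mean all 5 lists gave 0. Leaving out 1 array gave 0 to 3 synthetases and 1 to 2 genes of the carnitine list. The cause of these shifts was not tested.

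Signs turned only for values that had not passed, apart from Nudt7, which was -0.14 on its probe set of largest interquartile range. That probe set rule gave -0.025 for Acot2. With the 3′ minus 5′ difference Acot1 was 0.035 and Acot5 0.039. With the muscle mean Acot3 was -0.013 and Ppara 8.2e-05. With the macrophage mean Acot3 was -0.061, Acot5 0.011 and Ppara 0.039. Without the muscle-low arrays Acot5 was 0.0044. With the endothelial mean Acot1 was 0.20, Acbd4 0.049 and Slc25a42 0.063. Leaving out 1 array gave -0.012 to 0.044 for Acot3, -0.038 to 0.034 for Acot5 and -0.060 to 0.047 for Ppara. The skeletal muscle mean differed by -0.92 to 0.070 when 1 array was left out, positive without anti-FGFR1 replicate 5 (0.070, exact permutation p = 0.877). All thioesterase values rest on 6 arrays a group, and dim probe sets such as that of Acot5 are the least certain.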
